A study of Mus musculus with 18 samples.

Results

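The early response to RANKL was taken from the libraries labelled Zmat1 knockout (KO), as the 3 libraries of day 1 against the 3 of day 0. They were chosen by the genotype and day in their titles and are 6 of the 18 libraries of the series. The cells were bone marrow-derived macrophages (BMDMs), which are raised from marrow of mice under M-CSF, a factor that keeps macrophages alive, and RNA was measured by sequencing messenger RNA. Day 0 cells had M-CSF alone and day 1 cells had M-CSF and RANKL for 1 day. Per the study's methods the knockout was global, on the C57BL/6 background, and wild type (WT) mice came from the same crosses of heterozygotes. The study's methods took BMDMs from mice some weeks old, and the age behind each library is not in the labels. All groups share M-CSF, and the labels do not say whether the libraries came from separate mice, so p-values measure the spread between these libraries.

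RANKL binds its receptor RANK on macrophages and, through TRAF6, NF-kB and AP-1, leads to the induction of NFATc1, the transcription factor that turns on osteoclast genes such as Acp5 and Ctsk. Mature osteoclasts are large fused cells that dissolve bone with acid and proteases. Cells make cholesterol through the mevalonate pathway, whose genes are switched on together by the transcription factor SREBP2 when sterols in the membrane are low.

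Titles came in 2 styles, with a double hyphen (day 0 replicate 2, day 1 replicates 1 and 2) or a single hyphen (day 0 replicates 1 and 3, day 1 replicate 3), and the comparison was fitted without and with the style as a covariate. Values are from the fit without the style unless the text says otherwise. All libraries of day 3 had single hyphen titles, so in that fit day 3 against day 1 mixes the day with the style. The labels do not say what the style stands for. Total counts of the 6 libraries ran from 13789775 to 17559958, and 14241 genes were tested. Across all 18 libraries, 3310 of them followed the style (adjusted p below 0.05, edgeR). In the 6 libraries the first principal component of log2 CPM (counts scaled to a common library size) held 44.9% of the variance and separated the styles. The second held 24.3% and separated the days, at -33.9 to -24.4 on day 0 and 24.5 to 33.3 on day 1.

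**Figure D1:**
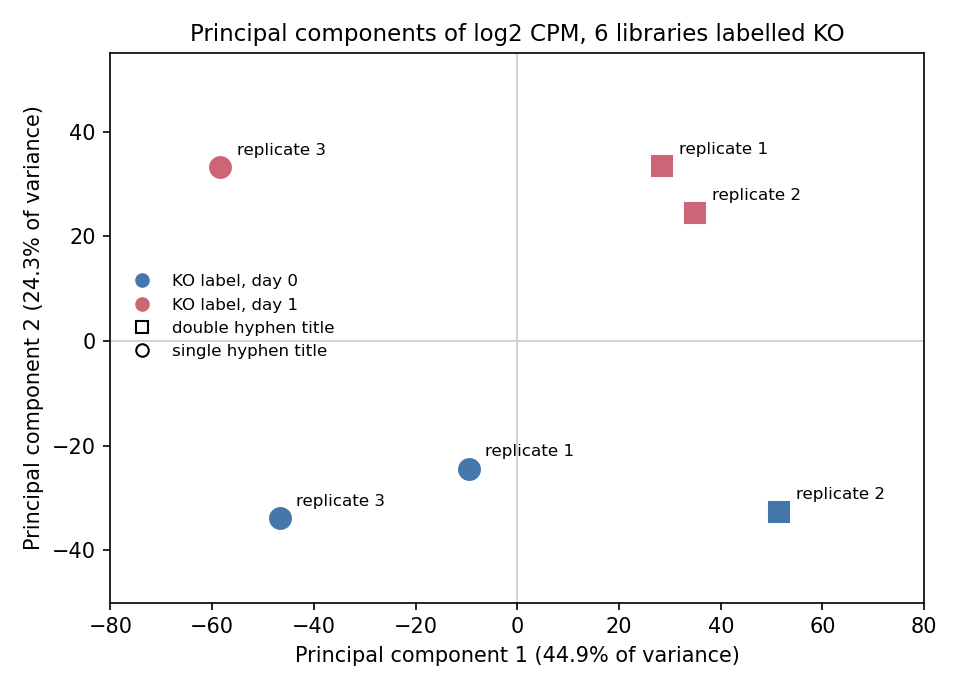
Principal components 1 (x axis, 44.9% of the variance) and 2 (y axis, 24.3%) of log2 CPM in the 6 libraries labelled KO. Squares are double hyphen and circles single hyphen titles, and the days separate along the y axis while the styles separate along the x axis.

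Zmat1 itself (ENSMUSG00000052676, chromosome X, GRCm38) was counted in every library labelled KO. It measured 3.49, 7.61 and 4.30 CPM in day 0 replicates 1, 2 and 3, and 4.04, 5.30 and 6.47 CPM in day 1 replicates 1, 2 and 3. The days overlapped, and day 1 against day 0 gave a log2 fold change of 0.04 with an SE of 0.404 (adjusted p = 0.987, edgeR). Its sign turned in 4 of 14 alternatives. In the libraries labelled WT, Zmat1 measured 4.351 ± 2.745 CPM on day 0 and 3.986 ± 0.4314 CPM on day 1 (SD, n = 3). The KO label had 5.135 ± 2.184 and 5.269 ± 1.215 CPM. Its mean was thus not lower in the KO label on either day, and a difference between the labels was not tested. The groups are therefore called by their label throughout. Macrophage genes were abundant on both days. Lyz2 (lysozyme) lay between 24970 and 50200 CPM, and Csf1r, the receptor of M-CSF, measured 5093, 4691 and 4241 CPM on day 0 and 4135, 3697 and 2489 CPM on day 1. Of 7 osteoclast markers, 4 were at or near 0 on both days, and Ctsk, Acp5 and Mmp9 were not (given further on). Calcr, the calcitonin receptor, had 0 counts in all 6 libraries, Oscar was at most 0.154 CPM, and Dcstamp and Ocstamp, which carry cell fusion, were at most 1.88 and 2.71 CPM.

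The promoters of 3 genes of the sterol list are shown first, since genes of that list lead the comparison. Of the 3, Lss had an adjusted p below 0.05 in both fits, Hmgcs1 only with the style, and Mvd in neither (edgeR). Fdft1, which had it in both fits, had no promoter among those read. The stretches are from RefSeq (GRCm38.p6), from 150 to 21 bases before the RefSeq start, 5′ to 3′ on the gene's strand. Capitals mark TCACNCCAC, the letters of the sterol regulatory element that SREBP binds, and CCAAT, the box bound by NF-Y, on either strand (ATTGG where it runs the other way). Hmgcs1 lies on the plus strand (chr13:119690201-119690330), Lss on the plus strand (chr10:76531455-76531584) and Mvd on the minus strand (chr8:122443443-122443572).
Hmgcs1: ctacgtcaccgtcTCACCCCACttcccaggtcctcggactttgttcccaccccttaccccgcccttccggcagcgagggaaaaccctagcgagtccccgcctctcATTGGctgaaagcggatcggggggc
Lss: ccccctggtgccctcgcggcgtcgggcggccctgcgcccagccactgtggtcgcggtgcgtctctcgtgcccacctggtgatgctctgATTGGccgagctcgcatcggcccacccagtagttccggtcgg
Mvd: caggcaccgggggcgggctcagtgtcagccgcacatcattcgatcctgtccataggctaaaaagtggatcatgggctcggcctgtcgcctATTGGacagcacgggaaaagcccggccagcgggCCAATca
Of the 11 sterol genes followed here, 8 had a promoter in the table, in windows from 250 bases before to 50 after the start. TCACNCCAC was in 1 of these 8, Hmgcs1, where it began 137 bases before the start, and in 1.24% of all 32851 promoters. CCAAT was in all 8 (for Dhcr7 in 1 of its promoters) and in 37.4% of all promoters, and the 2 motifs did not overlap in the stretches shown. These matches describe the letters and were not read as binding sites.

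The comparison of day 1 with day 0 asked which genes answer to the first day of RANKL in the libraries labelled KO. Few genes passed the test across all genes. Without the style, 3 genes were called, meaning an adjusted p below 0.05 in edgeR's quasi-likelihood test, which is 0.0211% of those tested, and all 3 rose on day 1. They were Lss, Fdft1 and Dusp18. With the style, 18 genes were called (0.126%), 17 of which rose and 1 of which fell, and the first 3 were among them. Unadjusted p-values were under 0.05 for 1456 genes without and 2574 with the style. Leaving out 1 library changed these counts. Without the style, 0 genes were called without day 0 replicate 1 or 3 or without day 1 replicate 1 or 2, and 13 without day 0 replicate 2. With the style the count was 1 without day 0 replicate 1 and 1 without day 0 replicate 3, 9 without day 1 replicate 1, 11 without day 1 replicate 2, and 6 without day 1 replicate 3.

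Lss makes lanosterol, the first sterol of the cholesterol pathway. It measured 24.7, 27.4 and 26.6 CPM in day 0 replicates 1, 2 and 3, and 61.2, 58.5 and 56.6 CPM in day 1 replicates 1, 2 and 3. The days did not overlap and all 3 libraries of each day lay close together. The log2 fold change was 1.17 without the style (SE 0.151, adjusted p = 0.0127) and 1.19 with it (adjusted p = 0.0113, edgeR), with 1.12 between the double hyphen libraries and 1.14 between the single hyphen ones. On day 3 Lss was higher again, at 101 ± 16.6 CPM (SD, n = 3), with a log2 fold change of 0.79 against day 1 (adjusted p = 0.00178, edgeR).

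Fdft1, squalene synthase, commits the pathway to sterols. It measured 21.2, 26.8 and 21.4 CPM on day 0 and 53.0, 57.9 and 51.4 CPM on day 1. Every day 1 library was above every day 0 library. Its log2 fold change was 1.22 without the style (SE 0.161, adjusted p = 0.0127) and 1.18 with it (adjusted p = 0.0113, edgeR). Dusp18, a dual-specificity phosphatase, was a gene of low level, at 3.71, 4.54 and 3.28 CPM on day 0 and 8.78, 8.88 and 9.39 CPM on day 1. Its log2 fold change was 1.23 without the style (SE 0.172, adjusted p = 0.0182) and 1.25 with it (adjusted p = 0.0113, edgeR). The days of Dusp18 were apart too, and its call was also lost without day 1 replicate 3 (log2 fold change 1.19, adjusted p = 0.0773, edgeR) and without a filter on low counts.

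Genes of cholesterol synthesis were higher on day 1, and some of them passed the test. All 11 members of a list of mevalonate and sterol genes were tested, all 11 were higher in each day 1 library than in each day 0 library, and 11 passed the study's own threshold (a fold change above 1.5 or below 0.66 at a p, before adjustment, below 0.05) without the style. Over all genes tested, 8.55% did not overlap in that direction and 2.08% passed that threshold as higher. Called genes on the list were Lss and Fdft1 without the style, with Cyp51 and Hmgcs1 added with it. The median log2 fold change of the list was 1.03 without and 1.06 with the style, against 0.00174 and -0.00646 over all genes. That all 11 were also higher within each style follows from the days not overlapping. The medians within the styles were 0.806 (double hyphen, 2 libraries against 1) and 1.21 (single hyphen, 1 against 2). The list had been seen to move in earlier results of these data.

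Along the pathway, Hmgcs1 catalyses an early step. It measured 90.2, 147.9 and 87.4 CPM on day 0 and 250.5, 230.1 and 184.5 CPM on day 1. The double hyphen library of day 0 was the highest of its day, and the single hyphen library of day 1 the lowest. The log2 fold change was 0.89 with the style (SE 0.124, adjusted p = 0.0113) and 1.03 without (adjusted p = 0.136, edgeR). Cyp51, which removes a methyl group from lanosterol, measured 56.1, 83.1 and 51.0 CPM on day 0 and 148, 143.9 and 130.5 CPM on day 1 (log2 fold change 1.06 with the style, adjusted p = 0.0178, and 1.15 without, adjusted p = 0.110, edgeR).

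The other members were not called in either fit. Mvd, Idi1 and Fdps make the isoprene units, and their means went from 39.9 ± 10.7, 37.0 ± 9.88 and 43.1 ± 2.33 CPM on day 0 to 90.7 ± 7.41, 75.6 ± 5.61 and 87.9 ± 11.6 CPM on day 1 (SD, n = 3 each). Sqle, which oxidises squalene, went from 43.2 ± 15.9 to 98.3 ± 14.2 CPM. Dhcr7, a late reductase, went from 45.2 ± 5.43 to 86.3 ± 5.99 CPM. These 5 enzymes had log2 fold changes of 0.93 to 1.19 without the style.

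Regulators of the pathway were on the list as well. Srebf2, which codes for SREBP2, measured 205.2, 217.7 and 201.1 CPM on day 0 and 317.3, 317.5 and 307.3 CPM on day 1. Insig1, which holds SREBP in the endoplasmic reticulum when sterols are plentiful, measured 104.9, 124.2 and 116.6 CPM on day 0 and 176.4, 176.9 and 186.1 CPM on day 1. Neither Srebf2 (log2 fold change 0.59) nor Insig1 (0.64) was called, and both had the smallest fold changes of the list. Per length, on the scale of the deposited FPKM, the 4 called sterol genes ran from Lss (1.32 ± 0.0622 on day 0 and 2.98 ± 0.203 on day 1) to Hmgcs1 (30.8 ± 7.37 and 63.7 ± 4.73, SD, n = 3).

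**Figure D2:**
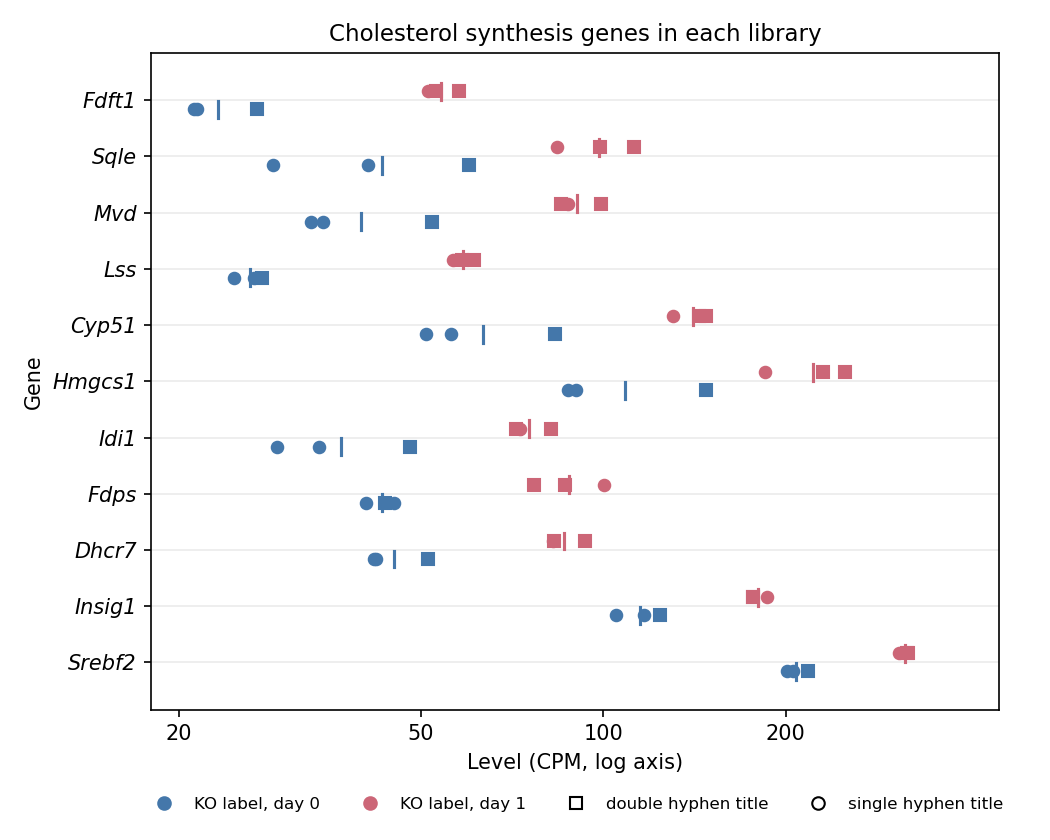
Level in CPM (x axis, log scale) of the 11 cholesterol synthesis genes (y axis) in each of the 6 libraries labelled KO. Blue is day 0 and red day 1, squares are double hyphen and circles single hyphen titles, short lines are means, and in each gene all 3 day 1 points lie above the 3 day 0 points.

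2 genes of fatty acid synthesis were called with the style. Scd2, a desaturase that makes monounsaturated fatty acids, measured 162.0, 171.7 and 209.2 CPM on day 0 and 507.2, 475.1 and 701.9 CPM on day 1. Its log2 fold change was 1.78 with the style (SE 0.306, adjusted p = 0.0411) and 1.63 without (adjusted p = 0.136, edgeR). Fasn, fatty acid synthase, measured 81.9, 74.8 and 76.0 CPM on day 0 and 142.0, 146.4 and 200.5 CPM on day 1, with a log2 fold change of 1.18 with the style (adjusted p = 0.0455) and 1.07 without (adjusted p = 0.154, edgeR). Both genes were apart between the days, and day 1 replicate 3 was the highest library in each. Scd2 went on to 1558 ± 106 CPM on day 3 (log2 fold change 1.47 against day 1, adjusted p = 0.00704, edgeR).

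Some genes were high on day 1 and lower again on day 3. Il2rg, the common gamma chain of cytokine receptors, measured 57.0, 77.9 and 71.3 CPM on day 0, 248.7, 179.2 and 276.2 CPM on day 1, and 83.6, 63.1 and 81.7 CPM on day 3. Day 1 stood apart from both other days. The log2 fold change of day 1 against day 0 was 1.82 with the style (SE 0.299, adjusted p = 0.0369) and 1.77 without (adjusted p = 0.103), and day 3 against day 1 gave -1.62 (adjusted p = 0.00141, edgeR). Rnf149, a ubiquitin ligase, measured 145.8, 200.6 and 140.3 CPM on day 0, 317.8, 310.8 and 197.4 CPM on day 1 and 110.9 ± 1.02 CPM on day 3 (SD, n = 3). It rose by a log2 fold change of 0.63 with the style (adjusted p = 0.0372) and of 0.76 without (adjusted p = 0.136, edgeR) although day 1 replicate 3 lay below day 0 replicate 2, and day 3 against day 1 gave -1.31 (adjusted p = 2.05e-04, edgeR). Of the day 1 libraries only replicate 3, at 197.4 CPM, shared its title style with day 3, so part of that step may follow the style.

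Gm5424 was another gene called with the style, at 1.36, 1.85 and 2.47 CPM on day 0 and 13.6, 5.59 and 16.6 CPM on day 1 (log2 fold change 2.78, adjusted p = 0.0381, and 2.65 without the style, adjusted p = 0.133, edgeR). Gm5424 is a copy of Ass1, the enzyme of arginine synthesis, so reads may be shared between them. Ass1 itself measured 0.785, 0.615 and 1.38 CPM on day 0 and 8.46, 4.01 and 10.4 CPM on day 1, with a log2 fold change of 3.20 and an adjusted p of 0.0554 with the style (edgeR). Both lay apart between the days and both had day 1 replicate 2 as the lowest of its day.

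The other genes that rose with the style were of several kinds. Fn1, the matrix protein fibronectin, measured 311.4, 109.1 and 349.3 CPM on day 0 and 556.5, 476.8 and 1690.0 CPM on day 1. Day 1 replicate 3 was the highest of the 6 libraries, and without it the log2 fold change was 1.00 in place of 1.82 (without the style). With the style it was 2.44 (adjusted p = 0.0372, edgeR). Epn2, an endocytic adaptor, measured 10.98, 5.69 and 8.59 CPM on day 0 and 14.04, 13.3 and 21.4 CPM on day 1 (log2 fold change 1.23 with the style, adjusted p = 0.0113, and 0.95 without, adjusted p = 0.343, edgeR). Plcd1, a phospholipase C, measured 4.85, 2.77 and 5.24 CPM on day 0 and 5.45, 7.30 and 9.81 CPM on day 1 (1.11, adjusted p = 0.0381), and Soga1 measured 43.6, 28.5 and 41.5 CPM on day 0 and 46.9, 57.9 and 73.7 CPM on day 1 (0.78, adjusted p = 0.0459). In these 3 genes the lowest library was day 0 replicate 2 and the highest was day 1 replicate 3, and their adjusted p-values without the style were 0.268 to 0.434.

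The remaining 2 had almost no counts on day 0. Pcdhga3, a protocadherin whose exons overlap those of its cluster, had 0, 1 and 3 counts on day 0 and 15, 17 and 131 counts on day 1. A330074K22Rik, a long noncoding RNA, measured 0.143, 0 and 0.291 CPM on day 0 and 0.513, 0.215 and 3.27 CPM on day 1, and its days overlapped. Both were highest in day 1 replicate 3.

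Mapre2, which binds the growing ends of microtubules, was the gene that fell. It measured 104.8, 135.7 and 114.5 CPM on day 0, 78.0, 81.5 and 63.4 CPM on day 1 and 48.6 ± 1.57 CPM on day 3 (SD, n = 3). The log2 fold change was -0.80 with the style (SE 0.0855, adjusted p = 0.00292) and -0.67 without (adjusted p = 0.185, edgeR). It was -0.77 between the double hyphen and -0.79 between the single hyphen libraries. Day 3 was lower than day 1 by a further log2 fold change of -0.61 (adjusted p = 0.0130, edgeR). All 18 genes called with the style had differences of the same sign within both styles. For those whose days did not overlap, this follows from that separation.

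**Figure D3:**
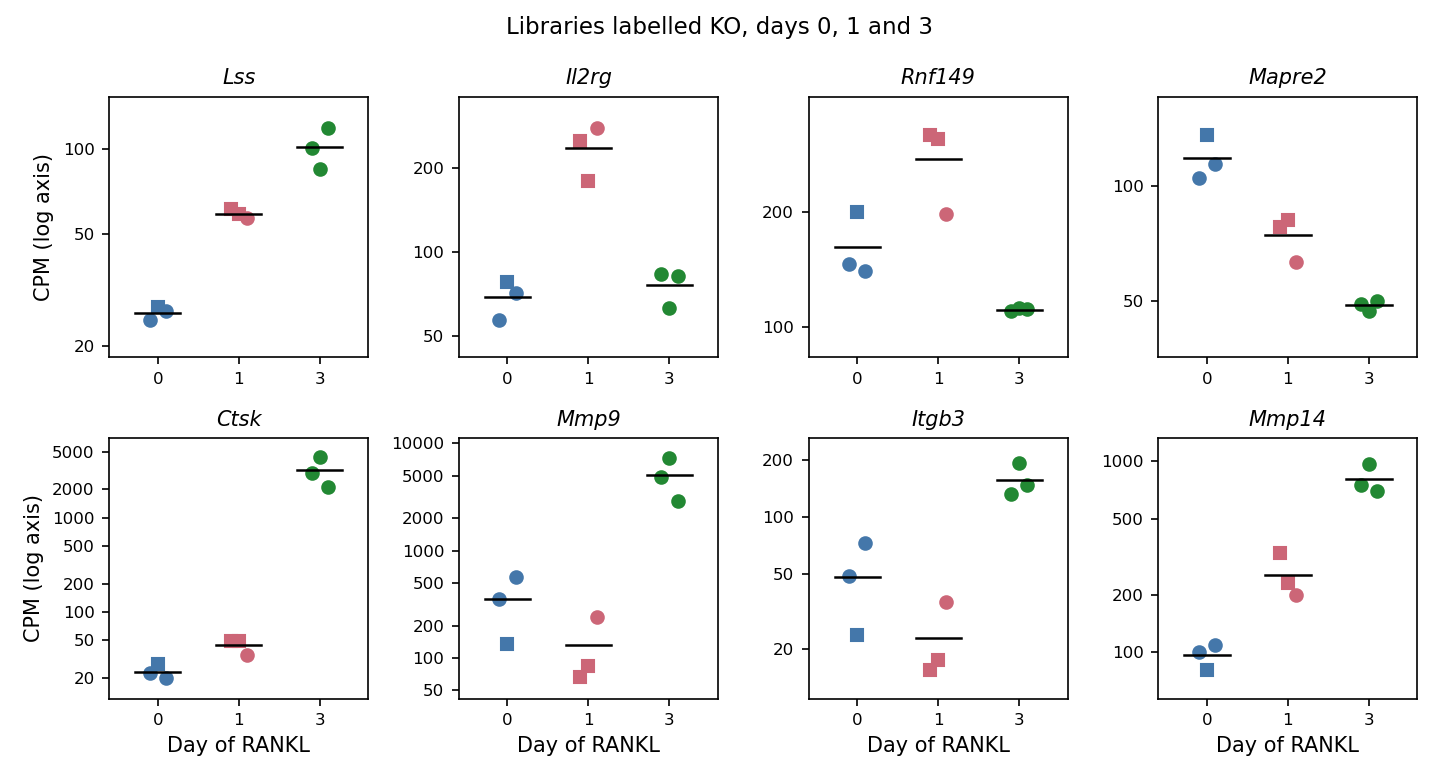
Level in CPM (y axis, log scale) of 8 genes on days 0, 1 and 3 of RANKL (x axis) in the libraries labelled KO. Squares are double hyphen and circles single hyphen titles and lines are means of 3 libraries, with Il2rg and Rnf149 highest on day 1, Mapre2 lower on each later day, and Mmp9 and Itgb3 with overlapping days 0 and 1 below their day 3 levels.

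At the study's threshold 719 genes passed without the style, 296 higher (2.08%) and 423 lower (2.97%), and 1363 with it, 904 higher (6.35%) and 459 lower (3.22%). Of the 719, 592 also passed with the style in the same direction and 703 had the same sign within both styles. Genes whose libraries did not overlap numbered 1217 higher on day 1 and 1510 lower (10.6% of those tested).

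Osteoclast genes were not called on day 1. Of 15 genes of bone resorption, 3 passed the study's threshold as higher and 2 as lower in each fit. Over all genes, 2.08% passed as higher without and 6.35% with the style, and 2.97% and 3.22% as lower. Unadjusted p-values without the style were under 0.05 for 8 of the 15, against 1456 of all 14241 (edgeR). The median log2 fold change of the 15 was 0.08 without and 0.02 with the style. Mmp14, a membrane protease, measured 100.5, 80.8 and 109.4 CPM on day 0 and 330.4, 231 and 198.5 CPM on day 1 (log2 fold change 1.39, adjusted p = 0.253, and 1.40 with the style, adjusted p = 0.144, edgeR). Ctsk, the collagen-cutting protease of osteoclasts, measured 22.2, 27.99 and 19.7 CPM on day 0 and 49.2, 49.3 and 34.9 CPM on day 1 (log2 fold change 0.93, adjusted p = 0.484, and 0.70 with the style, adjusted p = 0.324, edgeR). Acp5, the phosphatase known as TRAP, measured 66.1, 70.0 and 89.9 CPM on day 0 and 100.9, 88.8 and 192.5 CPM on day 1 (0.76, adjusted p = 0.481, and 0.82 with the style, adjusted p = 0.229). Day 1 of Mmp14 and Ctsk lay above day 0, and Acp5 overlapped. By day 3 Ctsk and Acp5 ranged from 2124 to 4450 and from 2300.0 to 4220 CPM.

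Mmp9 and Itgb3 went the other way on day 1. Mmp9, a gelatinase that neutrophils also make, measured 355.7, 135.3 and 566.2 CPM on day 0 and 66.4, 84.1 and 243.2 CPM on day 1 (log2 fold change -1.43, adjusted p = 0.479, and -1.03 with the style, adjusted p = 0.267, edgeR). Itgb3, the integrin that attaches osteoclasts to bone, measured 48.6, 23.6 and 72.6 CPM on day 0 and 15.4, 17.5 and 35.5 CPM on day 1 (-1.08, adjusted p = 0.411, and -0.98 with the style, adjusted p = 0.253). In both genes the double hyphen libraries were the lowest of their day and the days overlapped. Atp6v0d2, a proton pump subunit that osteoclasts need to fuse, followed the style more than the day, at 79.1, 374.2 and 136.4 CPM on day 0 and 277.1, 432.3 and 162.5 CPM on day 1, and its log2 fold change was 0.56 without and -0.02 with the style.

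None of the receptors, adaptors and transcription factors of RANK signalling was called. Tnfrsf11a, which codes for RANK, measured 52.0, 46.8 and 36.1 CPM on day 0 and 40.4, 42.7 and 39.0 CPM on day 1. None of the 14 genes of its list passed the study's threshold without the style. Src (log2 fold change 0.96) and Traf1 passed it as higher with the style, as did 6.35% of all genes. Traf1, an adaptor that NF-kB induces, measured 10.2, 8.07 and 9.25 CPM on day 0 and 14.6, 12.4 and 38.5 CPM on day 1 (log2 fold change 1.25, adjusted p = 0.533, and 1.42 with the style, adjusted p = 0.224, edgeR). Nfkb2, the subunit of the alternative NF-kB pathway, measured 89.9, 122.5 and 74.1 CPM on day 0 and 136.6, 138.6 and 172.2 CPM on day 1 (0.64, adjusted p = 0.563, and 0.68 with the style, adjusted p = 0.320). In both genes the days were apart and replicate 3 was the highest of day 1. Of 17 genes of NF-kB none passed the study's threshold in either fit.

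Nfatc1 measured 97.6, 84.1 and 100.5 CPM on day 0 and 89.5, 99.3 and 114.8 CPM on day 1 (log2 fold change 0.11, adjusted p = 0.897, edgeR), and the sign turned to -0.002071 without day 1 replicate 3. On day 3 it was higher than on day 1 by a log2 fold change of 2.06 (adjusted p = 4.69e-05, edgeR). Of its 11 program genes, 2 passed the study's threshold as higher and 1 as lower with the style, against 6.35% and 3.22% of all genes. Without the style 1 passed as higher (2.08% of all genes), Ppargc1b, a coactivator of mitochondrial genes, which went from 2.10 ± 0.5201 to 4.14 ± 0.433 CPM (SD, n = 3). Jdp2, an AP-1 factor of osteoclasts, measured 21.2, 15.7 and 28.9 CPM on day 0 and 17.5, 19.8 and 53.1 CPM on day 1. Its log2 fold change was 0.46, and -0.24 without day 1 replicate 3. Of the repressors of osteoclast genes, Irf8 measured 384.5, 426.6 and 381.7 CPM on day 0 and 337.0, 324.0 and 251.7 CPM on day 1, and was not called (-0.39, adjusted p = 0.757, edgeR).

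Day 1 replicate 3 lay nearer to day 3 than the other 2 libraries of day 1. The course was taken from the libraries labelled WT, where 3370 genes were called higher and 3773 lower on day 3 than on day 0. In the libraries labelled KO the median log2 CPM of the higher genes, less the mean of day 0, was 0.127, 0.122 and 0.380 in day 1 replicates 1, 2 and 3, and -0.05 to 0.04 in the day 0 libraries. For the lower genes it was -0.11, -0.11 and -0.33. On day 3 the medians were 0.881 to 1.01 and -0.92 to -0.77. Replicate 3 was also the only day 1 library with a single hyphen title, so library and style cannot be told apart there.

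**Figure D4:**
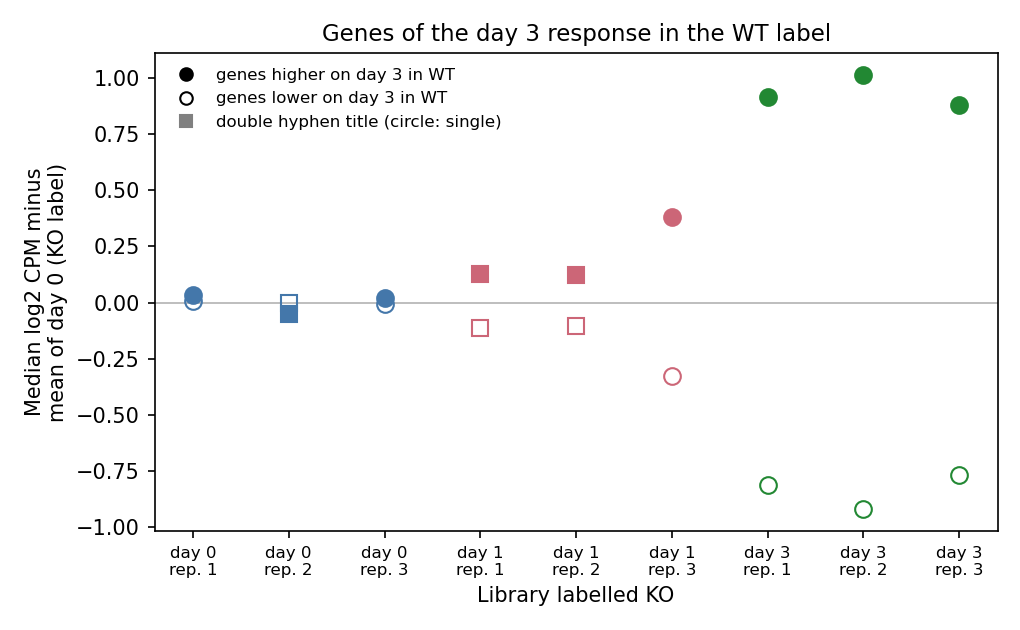
Median log2 CPM minus the mean of the day 0 libraries (y axis) over genes higher (filled, 3370) and lower (open, 3773) on day 3 in the WT label, for each library labelled KO (x axis). Squares are double hyphen and circles single hyphen titles, and day 1 replicate 3 (0.380 and -0.33) lies between the other day 1 libraries and day 3.

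Genes past the study's threshold whose days did not overlap, with a mean of at least 5 CPM in the higher group, were ranked by fold change. Of the 8 highest and 8 lowest, Gm5424 alone was called, in the fit with the style. Ass1 was among the higher ones too. Marco, a scavenger receptor of macrophages, measured 6.78, 8.998 and 34.6 CPM on day 0 and 159.6, 71.2 and 75.6 CPM on day 1 (log2 fold change 2.61, adjusted p = 0.366, and 3.28 with the style, adjusted p = 0.142, edgeR), and 6.60 ± 5.40 CPM on day 3 (SD, n = 3). Cd163, a macrophage gene of smaller fold change and the receptor for haemoglobin and haptoglobin, measured 125.2, 44.8 and 81.0 CPM on day 0 and 19.6, 23.4 and 33.5 CPM on day 1 (-1.72, adjusted p = 0.253). Cd163 lay apart between the days. Also higher were Ly6i, a surface antigen, at 0 to 0.801 and 1.79 to 12.4 CPM, Aldh1l2, a mitochondrial folate enzyme, at 5.02 to 7.15 and 8.83 to 32.3 CPM, Adh7, an alcohol dehydrogenase, at 0.846 to 2.14 and 3.78 to 6.52 CPM, Kif26b at 1.08 to 3.28 and 5.30 to 12.9 CPM, and Pcdhga1, of the same cluster as Pcdhga3, at 0.143 to 0.231 and 1.79 to 13.9 CPM.

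Among the 8 lowest was Ppbp, a platelet chemokine, which measured 33.7, 15.7 and 48.9 CPM on day 0 and 4.29, 3.44 and 8.49 CPM on day 1 (log2 fold change -2.60, adjusted p = 0.216, edgeR). Alox12, a platelet lipoxygenase, went from between 5.77 and 11.8 to between 1.11 and 1.41 CPM, and Gp5, Gp1bb, Tubb1 and Mfsd2b had log2 fold changes of -2.94 to -2.33 with adjusted p-values of 0.223 to 0.326. In each of these 6 genes, as in Mmp9 and Itgb3, day 0 replicate 2 was the lowest of its day. Ccl24, a chemokine, measured 15.1, 5.999 and 13.0 CPM on day 0 and 1.99, 1.58 and 2.23 CPM on day 1. Tmed2 had 63.3 CPM in day 0 replicate 3 and at most 1.23 CPM in the other 5 libraries, and its log2 fold change of -4.65 became -0.45 without that library.

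Levels of markers of other cell types differed between libraries, and none of these markers was called. The 12 neutrophil markers had a median log2 fold change of -1.80. Of them, 5 passed the study's threshold as lower, or 4 with the style (2.97% and 3.22% of all genes), and none as higher. Without overlap, 6 lay lower on day 1 (10.6% of all genes did). Their summed level was 6435, 4050.0 and 13250.0 CPM on day 0 and 1628, 2225 and 3554 CPM on day 1, so all libraries of day 1 lay below day 0, and no marker was at 0 in all 6. The 13 stromal or osteoblast markers summed to 3638, 1118 and 3784 CPM on day 0 and 3671, 2471 and 8375 CPM on day 1, which overlapped. Of the 12 tested, 5 passed the study's threshold as higher with the style and 0 without (6.35% and 2.08% of all genes). The 10 B cell markers summed to 320.6 to 584.6 CPM on day 0 and 82.9 to 307.8 CPM on day 1. In bulk samples fewer cells of a type and less RNA per cell cannot be told apart. No marker list was drawn up for platelets. The part of these cells, or of platelets, in the results for Mmp9, Itgb3 and Fn1 was not tested.

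Genes of antigen presentation were lower on day 1 without passing the test. All 7 tested MHC class II genes had negative log2 fold changes (median -1.28), 6 lay lower without overlap (10.6% of all genes did), and 2 passed the study's threshold as lower, or 3 with the style (2.97% and 3.22% of all genes), with 0 called in either fit. H2-Ab1, a class II chain, measured 217.3, 143.5 and 279.4 CPM on day 0 and 59.0, 98.0 and 74.3 CPM on day 1 (log2 fold change -1.47, adjusted p = 0.429, and -1.82 with the style, adjusted p = 0.152, edgeR). Ciita, the master regulator of the class, measured 19.8, 15.0 and 23.7 CPM on day 0 and 5.71, 8.23 and 10.2 CPM on day 1 (-1.28, adjusted p = 0.541).

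Genes of glycolysis and of amino acid supply were mostly higher. Of 14 glycolytic genes, 13 had positive log2 fold changes (median 0.38), as had 7149 of all 14241 genes. Of the 14, 8 were apart as higher (8.55% of all genes were) and 2 passed the study's threshold as higher in each fit (2.08% and 6.35% of all genes), Slc2a1 and Pfkl. Slc2a1, the glucose transporter GLUT1, measured 28.4, 27.2 and 43.3 CPM on day 0 and 52.1, 55.6 and 53.6 CPM on day 1 (log2 fold change 0.70, adjusted p = 0.274, edgeR). All 12 genes of serine and amino acid supply had positive values (median 0.58), 7 were apart, and 1 passed the study's threshold without and 5 with the style. The first was Slc7a11, the cystine transporter, at 4.56, 9.23 and 6.70 CPM on day 0 and 18.6, 20.6 and 21.7 CPM on day 1 (1.57, adjusted p = 0.350). None of these genes was called in either fit.

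**Figure D5:**
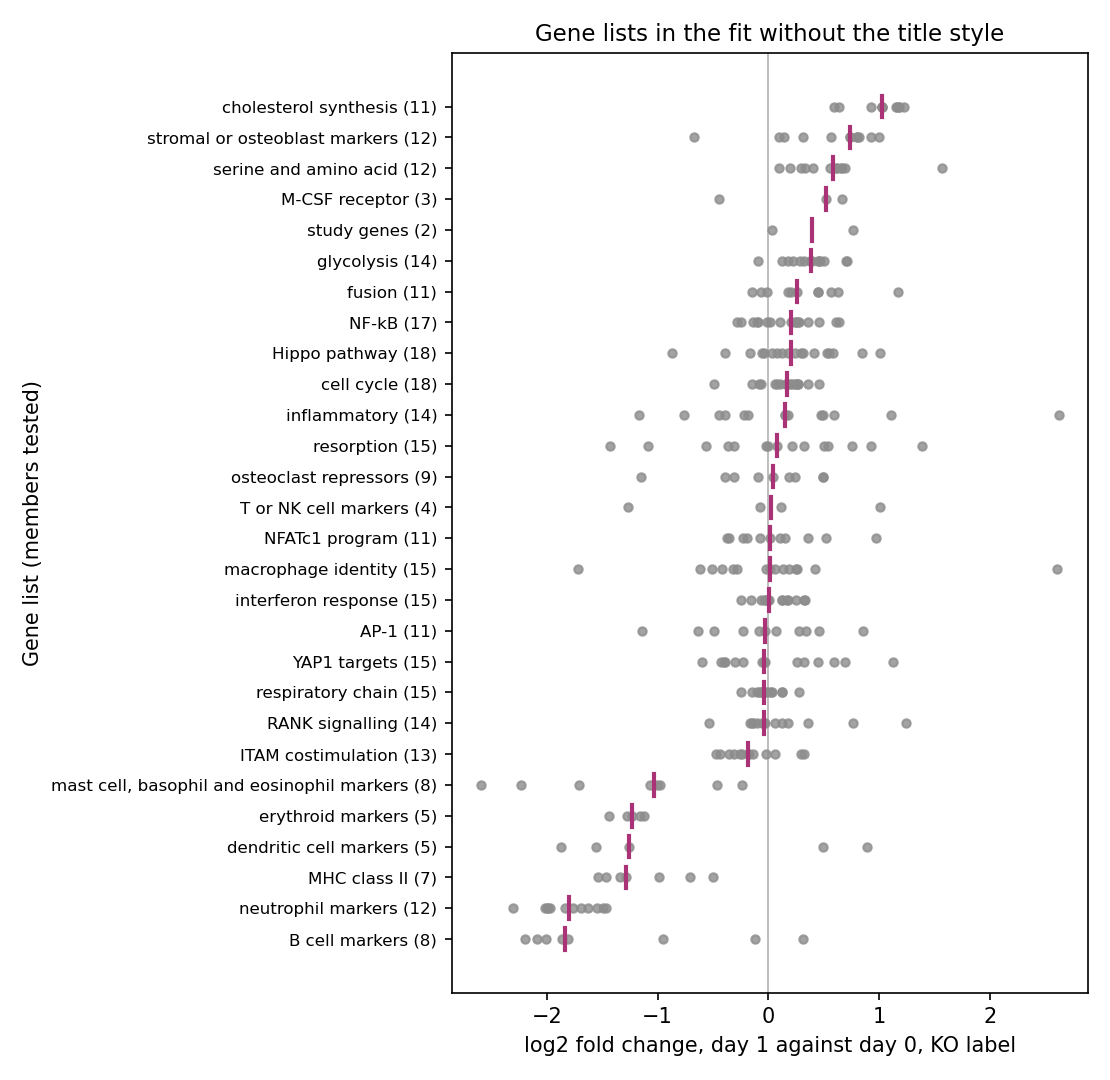
Log2 fold change of day 1 against day 0 (x axis, fit without the title style) of each tested member (grey points) of the 28 gene lists (y axis, number tested in brackets), with purple lines at the medians. Cholesterol synthesis has the highest median (1.03), and the neutrophil (-1.80) and B cell (-1.84) markers the lowest.

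Trim46 and Yap1, which the study names in its title, were not called. Trim46, a ubiquitin ligase, measured 0.642, 0.461 and 1.31 CPM on day 0 and 1.92, 0.931 and 1.25 CPM on day 1 (log2 fold change 0.76, adjusted p = 0.722, and 1.12 with the style, adjusted p = 0.347, edgeR). Yap1, the coactivator of the Hippo pathway, measured 23.2, 8.84 and 17.4 CPM on day 0 and 20.3, 16.4 and 34.6 CPM on day 1 (0.53, adjusted p = 0.865). With the style its log2 fold change was 1.22 (adjusted p = 0.285, edgeR), and without day 1 replicate 3 it was 0.148 (no style). Trim46 and Yap1 both overlapped between the days. Of 18 Hippo genes none passed the study's threshold without the style and 3 passed as higher with it (6.35% of all genes did). Lats1, a kinase of the pathway, had the smallest p of the list, at 45.2, 41.8 and 44.3 CPM on day 0 and 53.4, 54.1 and 53.6 CPM on day 1 (0.29, adjusted p = 0.267, edgeR).

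Whether the response differed from that of the libraries labelled WT was tested as the difference of the day 1 responses. It was called for 0 of 14241 genes without the style and 0 with it by edgeR (527 and 803 genes had a p below 0.05 before adjustment), and for 0 by DESeq2. WT day 1 holds 2 libraries with the number 1 in their titles and none with 3, and the labels do not say whether those 2 share a mouse. In the libraries labelled WT themselves, 335 genes were called on day 1 without the style. The title styles were split alike on days 0 and 1 of the WT label but not of the KO label. The counts of called genes in the labels are therefore not like for like. The sterol list had a median log2 fold change of 0.53 there with 2 genes called, Lss (0.90, adjusted p = 0.0342) and Fdft1 (0.83, adjusted p = 0.0342, edgeR). Insig1 had a log2 fold change of -0.04 in the WT label and a difference of 0.68 (SE 0.187, adjusted p = 1.00, edgeR). Mmp9 had a log2 fold change of 1.27 in the WT label and a difference of -2.69 (SE 0.897, adjusted p = 1.00, edgeR). Traf1 was called in the WT label (3.50, adjusted p = 0.0369, edgeR) and not in the KO label (1.25), and the difference itself was not called.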

How the data were processed

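The authors extracted RNA with an RNeasy kit, made libraries with a SMARTer mRNA kit and deposited 1 table that gives each gene, per library, its number of reads (a count) and its FPKM, which is scaled by gene length and depth. The study's methods name StringTie and Ballgown for the FPKM, and the submitters' processing notes name StringTie and the builds GRCm38.p4 and mm10. The aligner and the program that made the counts are not given in the sources used here. The deposited counts are whole numbers for 34745 genes, of which 13394 were at 0 in all 18 libraries, and columns without a sample numbered 0. FPKM served only to compare levels per length.

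The test was edgeR 4.0.16 under R 4.3.3 (filterByExpr, TMM scaling, glmQLFit, glmQLFTest). All 18 libraries entered as 6 groups of 3, without and with the title style, and the contrast was day 1 minus day 0 of the KO label. Benjamini-Hochberg adjustment ran over 14241 genes, all tests were 2-sided, and the common dispersion came to 0.0945. Levels are TMM-scaled CPM, and log2 CPM used a prior count of 2. SEs of log2 fold changes come from the F statistic. A gene with 3 or fewer counts in every library of either day gets no fold change in the text. Alternatives used DESeq2 1.42.0 (size factors, Wald test), total counts, other filters, fewer libraries, a block of the replicate number, and each library left out. The test was also run on simulated data, with the spread of each gene capped at the common dispersion. That run therefore cannot give the error rate of the test in these libraries.

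The libraries, the 28 gene lists and the rule for named genes were chosen with earlier results of these data known. The rule took every called gene, the 8 genes of largest fold change in each direction past the study's threshold with days apart and at least 5 CPM in the higher group, a fixed list of osteoclast and study genes, and the 2 members of smallest p in each list that is not a marker list, 92 genes in all. Some genes that the rule or the sterol list would hold are not reported here. Other list members were named after their values were seen. Promoters were read from RefSeq (GRCm38.p6), and the motifs were chosen after the sterol genes were seen. Totals were 13789775 to 17559958 counts in the 6 libraries, and 3 counts stand for 0.192 to 0.231 CPM there. That floor covers counting error only.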

Additional observations from a re-analysis of the deposited data

How the results depend on the processing

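The count of called genes depended on the fit. Without the style it was 3, and it became 18 with the style, 8 with total counts in place of TMM (7 higher, 1 lower), 170 with DESeq2 (86 higher, 84 lower), 0 when fitted on the 6 libraries alone, and 0 to 13 with 1 library left out. With the style it was 18, and it became 3 with the style left out, 54 with total counts (49 higher, 5 lower), 31 with the stricter filter (25 higher, 6 lower), 620 with DESeq2 (399 higher, 221 lower), 304 on the 6 libraries alone (214 higher, 90 lower), and 1 to 14 with 1 library left out. Of the 11 sterol genes, 2 were called without the style, and 4 with the style, 4 with total counts, 11 with DESeq2, 0 on the 6 libraries alone and 0 to 4 with 1 library left out. With the style, 4 sterol genes became 2 with the style left out, 8 with total counts, 11 with DESeq2, 11 on the 6 libraries alone, and 0 to 4 with 1 library left out. Genes past the study's threshold numbered 719, and 1363 with the style. The position of day 1 replicate 2 in the lower genes of the course became -0.2401 with total counts, from -0.11. The cause was not tested.

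The replicate number was fitted as a block within each label. Deviations of same-numbered libraries of days 0 and 1 correlated at 0.0536, 0.5007 and 0.598 for numbers 1, 2 and 3. Number 1 had a single hyphen title on day 0 and a double hyphen title on day 1, while numbers 2 and 3 kept their style. Such correlations were not computed for libraries of unlike numbers, so these values cannot decide whether the numbers pair the libraries. The main fit left them unpaired. With the replicate block 0 genes and 0 sterol genes were called, with or without the style. The block took both WT day 1 libraries of number 1 as 1 block.

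Over 90 named genes with more than 3 counts in some library of the comparison, and 1251 alternatives, 18 turned the sign of the log2 fold change, in 12 genes. With the style these were Atp6v0d2 (-0.01735), Zmat1 (-0.02269), Bcl6 (-0.0975) and Ccnb2 (0.00966). With 1 library left out, Zmat1 ranged from -0.1777 to 0.4327, Nfatc1 from -0.002071 to 0.1877, Jdp2 from -0.2404 to 0.7371, Prdm1 from -0.41 to 0.03911, Mitf from -0.1434 to 0.02731, Ocstamp from -1.065 to 1.285, Dcstamp from -0.5175 to 2.736, Stat2 from -0.06311 to 0.5325, Ccnb2 from -1.389 to 0.1805 and Mki67 from -0.5599 to 0.7502.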

Other observations

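Without the style, other gene lists showed few genes past the study's threshold in the comparison of day 1 with day 0 in the libraries labelled KO. None of the 15 interferon response genes, 18 cell cycle genes, 15 genes of the respiratory chain, 11 fusion genes, 11 AP-1 genes, 13 genes of ITAM costimulation, 3 M-CSF receptor genes, 9 tested osteoclast repressors and 15 YAP1 targets passed it without the style. With the style, 4 YAP1 targets passed it as higher and 1 as lower. The median log2 fold change of the YAP1 targets was -0.036 without and 0.838 with the style. Also with the style, 2 fusion genes, 1 AP-1 gene, 1 M-CSF receptor gene and 1 osteoclast repressor passed as higher, and 1 repressor as lower. None of the other lists just named had a gene past it. Over all genes with the style, 6.35% passed as higher and 3.22% as lower. Of 14 tested inflammatory genes, 1 passed it as higher and 2 as lower without the style (2.08% and 2.97% of all genes). Ccl5, a chemokine that draws T cells, measured 6.20, 6.92 and 5.10 CPM on day 0 and 84.9, 23.3 and 4.03 CPM on day 1, so replicate 3 lay below day 0 while the other two were above it (log2 fold change 2.62, adjusted p = 0.228, edgeR). Il10, an anti-inflammatory cytokine, measured 9.06, 8.07 and 6.41 CPM on day 0 and 6.22, 2.29 and 1.95 CPM on day 1 (-1.16, adjusted p = 0.381). Macrophage identity genes summed to 33910 to 58270 CPM on day 0 and 38700 to 55380 CPM on day 1.

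Summed markers of T or NK cells were 66.8 to 105.7 CPM on day 0 and 120.2 to 230.3 CPM on day 1, and those of dendritic cells 40.9 to 102.8 and 62.3 to 197 CPM. Mast cell, basophil and eosinophil markers summed to 48.4 to 352.1 CPM on day 0 and 25.2 to 83.3 CPM on day 1, and erythroid markers to 17.5 to 44.4 and 8.21 to 27.1 CPM, with Alas2 at 0 in all 6 libraries. Among transcription factors, Irf4 measured 8.41, 6.999 and 13.0 CPM on day 0 and 3.21, 3.29 and 6.26 CPM on day 1 (log2 fold change -1.15, adjusted p = 0.492, edgeR), and Batf3, a factor of dendritic cells, 5.35, 6.92 and 6.55 CPM on day 0 and 2.50, 3.29 and 2.71 CPM on day 1 (-1.14, adjusted p = 0.591). Both lay apart between the days and neither was called. Plekhm1, which carries lysosomes to the cell surface in osteoclasts, measured 426.5, 335 and 450.1 CPM on day 0 and 264.6, 272.2 and 281.5 CPM on day 1 (-0.57, adjusted p = 0.295). Lyn, a kinase that acts beside ITAM receptors, measured 288.5, 286.3 and 266.3 CPM on day 0 and 230.1, 226.4 and 164.4 CPM on day 1 (-0.44, adjusted p = 0.383).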
